A study of Mus musculus with 4 samples.

Results

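T-cell clones were examined in which a single rearranged T-cell receptor β chain (TRB) was found with several different α chains (TRA) in pancreatic islets. A member was a called cell with exactly 1 TRB and exactly 1 TRA among its high-confidence, full-length, productive contigs, whose TRB (its V and J segments with the nucleotides of its CDR3) occurred in such cells of the same library with at least 2 different TRA. The rule found 520 cells in 78 TRB clones, out of 9701 cells with 1 TRB and 1 TRA (single-pair cells) and 13345 called cells. These are called multi-TRA clones here. They were set against 852 single-TRA clones, TRB with at least 2 single-pair cells that all carried 1 TRA. The clones were chosen by the TRA measured in their single-pair cells, so the number of TRA per clone is a description. Dual-TRA cells, with 1 TRB and 2 TRA, were not used by the rule.

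The islets were taken from 2 genotypes of the NOD strain, whose T cells attack the insulin-producing β cells without any treatment: NOD mice and Tet2KO NOD mice, in which the DNA-demethylating enzyme Tet2 is deleted. There were 2 NOD libraries, labelled WT for genotype, and 2 Tet2KO NOD libraries, labelled KO, with set numbers 1 and 2 in each genotype. The Tet2−/− mice came from a B6 background and had been crossed to NOD for more than 14 generations. Each library pooled islets of 4 to 6 mice, so its clones can lie in several mice. The mice were aged 10 to 13 weeks per the series' design text, while the sample protocol counts the weeks from "BTM", which it does not spell out. Bone marrow donors are named among the animals, but no source used here says whether the mice of these libraries received marrow, so the cells that lacked Tet2 cannot be stated. The sample protocol describes nuclei and not the receptor library, and no transcriptome of these cells was used, so CD4 and CD8 T cells were not separated. The defining chains, TRA and TRB, are present in each member by the rule, 0 members carried an immunoglobulin contig, and a γ or δ contig was carried by 2 members of NOD 1, 1 of NOD 2, 0 of Tet2KO NOD 1 and 1 of Tet2KO NOD 2. Values for the 4 libraries are given in this order throughout.

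In the thymus TRB rearranges first, and a cell with a working TRB divides several times before it rearranges TRA. Daughter cells of that burst share the TRB and can each make a different TRA. TRA rearranges on both chromosomes with weaker allelic exclusion than TRB, so a T cell can carry 2 productive TRA, and in single-cell data either of them can go unread. CDR3 is the loop made at the V, D and J joints, where the enzyme TdT adds bases that no germline segment holds, and codons that differ in such a joint can spell the same amino acids.

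The CDR3 sequences of the clones that the results turn on come first. Bases in capitals matched neither the germline V nor the germline J segment of the GRCm38 annotation. They can hold added bases and, in TRB alone, D bases. They can also hold germline bases of these mice that differ from the annotation. Each TRAJ37 chain of these clones, for example, carried the same capitals next to its J match, which covered 14 bases. Clones are numbered within their library by decreasing number of members. Clone 1 of NOD 1 (TRBV16 with TRBJ1-4, CDR3 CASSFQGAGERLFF) is shown as the clone with the most members, whose TRA were also read together in dual-TRA cells.
NOD 1 clone 1 TRB: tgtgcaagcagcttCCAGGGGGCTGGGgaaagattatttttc
NOD 1 clone 1 first TRA, TRAV5-4 with TRAJ50: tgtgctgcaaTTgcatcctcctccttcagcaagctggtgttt
NOD 1 clone 1 second TRA, TRAV18 with TRAJ44: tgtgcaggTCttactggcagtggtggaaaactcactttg

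Clone 2 of Tet2KO NOD 1 (TRBV31 with TRBJ2-5, CDR3 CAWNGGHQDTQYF) is shown as the largest clone with 2 well filled TRA that were not read together.
Tet2KO NOD 1 clone 2 TRB: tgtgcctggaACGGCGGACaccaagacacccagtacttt
Tet2KO NOD 1 clone 2 first TRA, TRAV6D-6 with TRAJ12: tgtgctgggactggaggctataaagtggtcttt
Tet2KO NOD 1 clone 2 second TRA, TRAV6D-6 with TRAJ30: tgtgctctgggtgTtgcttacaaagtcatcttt

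The CDR3β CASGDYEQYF (TRBV12-2+TRBV13-2 with TRBJ2-7) is shown because it was written by several nucleotide forms, found mostly with nucleotide forms of the same CDR3α, that of TRAV6D-6 with TRAJ45 printed here. This CDR3α is called the TRAV6D-6/TRAJ45 chain. The first 2 TRB forms hold no base outside the germline segments.
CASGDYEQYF TRB, form with codon gac: tgtgccagcggtgactatgaacagtacttc
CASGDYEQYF TRB, form with codon gat: tgtgccagcggtgattatgaacagtacttc
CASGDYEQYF TRB, form with unmatched bases: tgtgccagcggGGActatgaacagtacttc
TRAV6D-6/TRAJ45 chain, codon CAA: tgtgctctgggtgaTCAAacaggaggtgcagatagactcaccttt
TRAV6D-6/TRAJ45 chain, codon CAG: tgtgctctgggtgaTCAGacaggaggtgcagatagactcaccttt
TRAV6D-6/TRAJ45 chain, codons CAA and ACG: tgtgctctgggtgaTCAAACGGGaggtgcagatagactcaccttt

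Clone 1 of Tet2KO NOD 2 (TRBV31 with TRBJ1-1, CDR3 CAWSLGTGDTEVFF) is shown because 3 of its 4 TRA spell the same amino acids and differ in glycine codons.
Tet2KO NOD 2 clone 1 TRB: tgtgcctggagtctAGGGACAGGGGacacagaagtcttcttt
TRA of 9 cells, TRAV7-4 with TRAJ40: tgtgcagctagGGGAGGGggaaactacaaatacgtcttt
TRA of 4 cells, TRAV7-4 with TRAJ40: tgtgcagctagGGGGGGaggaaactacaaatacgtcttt
TRA of 1 cell, TRAV7-4 with TRAJ40: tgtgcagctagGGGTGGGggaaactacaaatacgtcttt
TRA of another cell, TRAV7-1 with TRAJ40: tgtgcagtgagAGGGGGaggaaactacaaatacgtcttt

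All of these segments lie in the mouse TRB locus on chromosome 6 or the TRA locus on chromosome 14 (GRCm38). The V segment TRBV13-2 is the gene at chr6:41121396-41121832 and the joining segment TRBJ2-7 lies at chr6:41543810-41543856. TRBV31, at chr6:41557691-41558452, is the V segment that lies on the other strand, downstream of the J segments. TRAV6D-6 lies at chr14:52821922-52822359. Its partners here lie downstream, TRAJ45 at chr14:54172828-54172890, TRAJ30 at chr14:54189866-54189924 and TRAJ12 at chr14:54206553-54206610. Rearrangement joins these coding exons by removing or inverting the DNA between them.

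The contig tables held between 85137263 and 220516119 reads per library. Single-pair cells numbered 4868, 2158, 1434 and 1241 in the libraries in the order above. Their median cell had 10, 13, 9 and 11 UMIs (unique molecular identifiers, counts of captured transcripts) for TRB and 5, 6, 5 and 6 for TRA. Dual-TRA cells numbered 696, 317, 170 and 151. Called-cell barcodes shared between 2 libraries numbered 4 to 30 per pair, and such a pair carried the same TRB in 1 case each for NOD 2 with Tet2KO NOD 1 and NOD 2 with Tet2KO NOD 2. The latter barcode was a member of Tet2KO NOD 2 clone 1, with a different TRA in NOD 2. Without shared barcodes 76 clones and 512 members remained in the count.

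Multi-TRA clones numbered 41 in NOD 1, 14 in NOD 2, 14 in Tet2KO NOD 1 and 9 in Tet2KO NOD 2. They held 261, 86, 128 and 45 members, which was 5.36% of the single-pair cells in NOD 1 (Wilson 95% interval 4.76% to 6.03%), 3.99% in NOD 2 (3.24% to 4.90%), 8.93% in Tet2KO NOD 1 (7.56% to 10.5%) and 3.63% in Tet2KO NOD 2 (2.72% to 4.82%). Such intervals cover counting error only. Of the 78 clones 67 had 2 TRA, 8 had 3 and 3 had 4. Most were small: 36 held 2 cells, 17 held 3 or 4, and 25 held 5 or more.

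Most of the second TRA rested on a single cell. The 78 clones carried 170 TRA, of which 120 were seen in 1 single-pair cell. In 40 clones each TRA had 1 cell, just inside the rule, and in 12 clones at least 2 TRA had 2 or more cells. Just outside the rule lay the 852 clones with 1 TRA. The most common V(D)J sequence of the TRB was the same for each TRA of the clone in 78 of 78 clones. Rarer sequences among the cells of a TRA were not compared. The constant segment, which this sequence does not cover, was called differently between the TRA of clones 25, 26 and 28 of NOD 1.

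The clones fell into 4 patterns by what their TRA shared. In 12 clones (105 members) a dual-TRA cell with the same TRB carried 2 of the clone's TRA in 1 cell, and these are called joined. In 14 further clones (95 members) 2 TRA spelled the same CDR3α amino acids. In NOD 1 clone 22 and NOD 2 clone 10 the TRA had the same CDR3 nucleotides and the same V bases upstream. These clones are multi-TRA by the V name alone. In 6 clones (34 members) 2 TRA used the same V and J with other amino acids. The remaining 46 clones (286 members) had TRA with another V or J. Joined clones numbered 5, 1, 4 and 2 in the 4 libraries, and same-amino-acid clones 8, 3, 0 and 3.

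**Figure D1:**
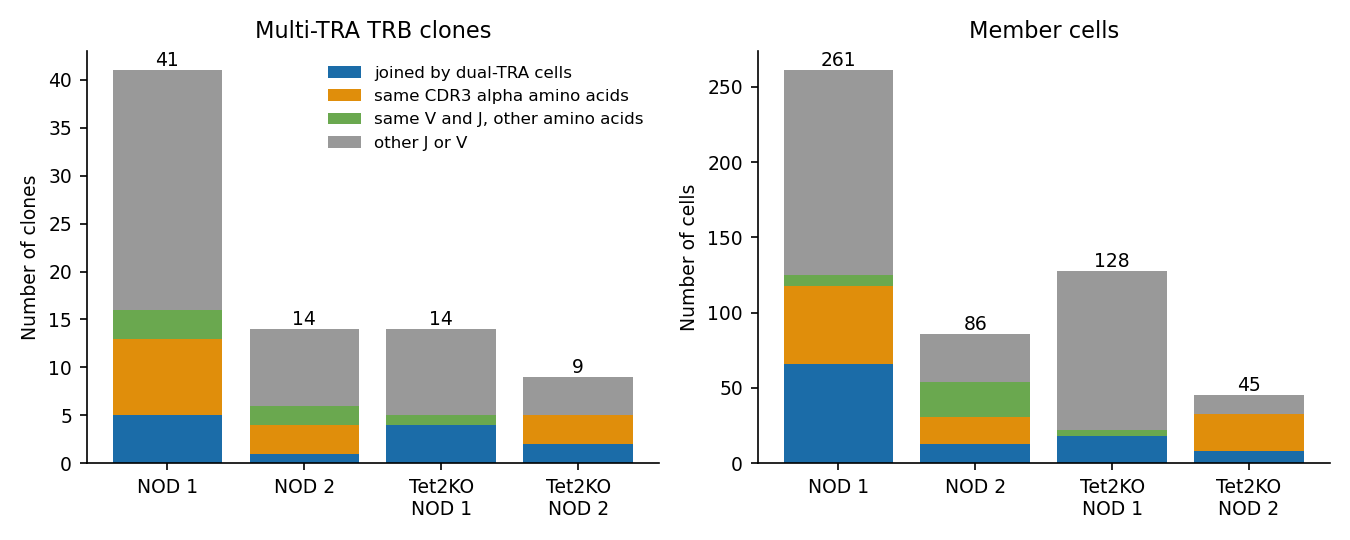
Number of multi-TRA TRB clones (left) and of their member cells (right) in each library, with colours for the 4 patterns of the TRA. The bars total 41, 14, 14 and 9 clones and 261, 86, 128 and 45 cells, and Tet2KO NOD 1 has 0 clones of the same-amino-acid pattern.

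Over the 12 joined clones 263 of 366 cells carried both TRA (71.9%), with a range of 12.5% in NOD 1 clone 9 (1 of 8 cells) to 89.5%. Clone 1 of NOD 1 had 30 cells with TRAV5-4 alone, 13 with TRAV18 alone and 106 with both, so 71.1% of its 149 cells were dual (Wilson 95% interval 63.4% to 77.8%). Its dual cells had a median of 8 UMIs for each TRA. In NOD 2 clone 3 (TRBV16, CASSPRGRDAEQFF) 11 cells had TRAV16N alone, 2 had TRAV9-1 alone and 42 had both, 76.4% (63.7% to 85.6%). In Tet2KO NOD 1 clone 4 (TRBV20, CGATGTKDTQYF) the counts were 6 with TRAV2 alone, 4 with TRAV15D-1-DV6D-1 alone and 38 with both, 79.2% (65.7% to 88.3%). The dual cells are thus the larger share of each of these clones, although the rule counts only the cells with 1 TRA.

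In 2 more joined clones of NOD 1 the dual cells were again the larger share. Clone 15 (TRBV19 with TRAV9-1) had 3 cells with 1 TRA, 1 with the other and 34 with both, 89.5%, and each of its TRA used TRAV9-1. Clone 7 (TRBV19, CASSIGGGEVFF) had 8, 2 and 27, 73.0%. Over the 5 joined clones of 10 or more cells 247 of 327 cells were dual (75.5%), with a range of 71.1% to 89.5% between clones. Given one of their TRA, the other was read in 77.1% to 97.1% of cells. The other 7 joined clones held 3 to 8 cells, 1 to 5 of them dual. Among these, Tet2KO NOD 2 clone 3 (TRBV19) had 3 cells with TRAV6-1 alone, 3 with TRAV7-1 alone and 2 with both, 25% (7.15% to 59.1%). Clone 6 of Tet2KO NOD 1 (TRBV12-2+TRBV13-2 with TRBJ1-1) had 4 TRA of 1 single-pair cell each. Its 4 dual cells held the TRAV14N-2 and TRAV5-4 chains, and 0 dual cells joined its TRAV12N-2 or TRAV8D-2 chain to another of its TRA.

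**Figure D2:**
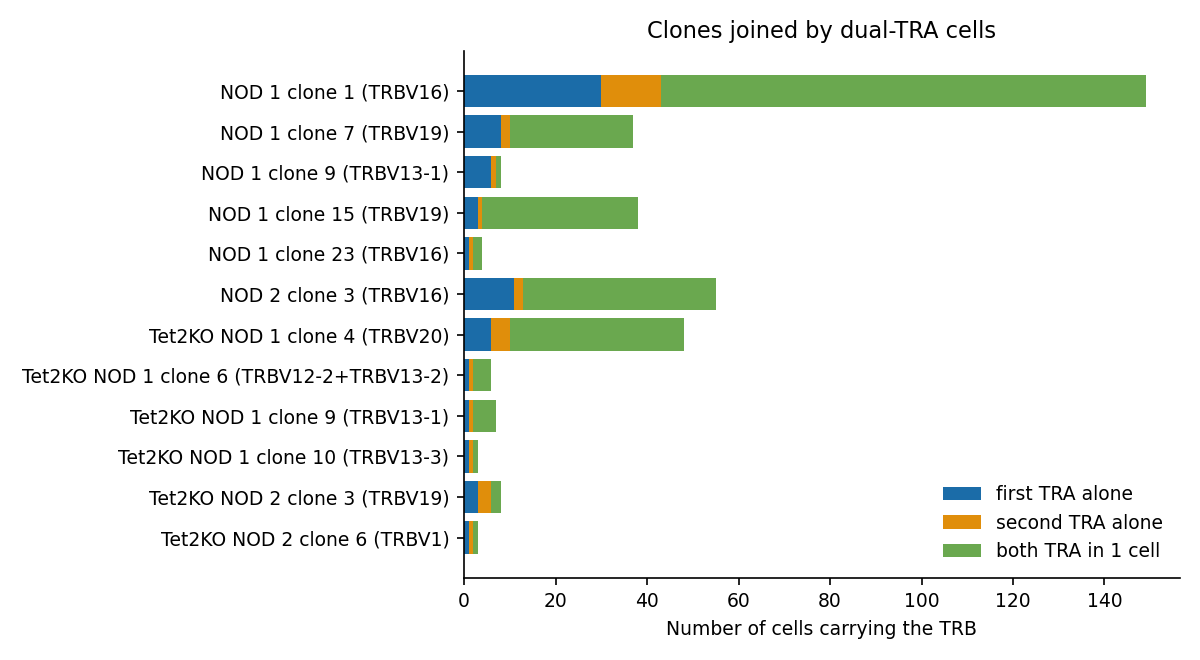
Cells carrying the TRB of each of the 12 joined clones, split into cells with the first TRA alone, the second TRA alone and both. In the 5 clones with 10 or more cells the part with both TRA makes up 71.1% to 89.5%.

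In the 4 libraries 112 TRB had the same TRA pair in at least 2 dual cells. Over these TRB 600 cells carried both TRA and 149 carried 1 of them, so 80.1% held both. These TRB were selected on their dual cells and include joined clones, so the share is a description and no second measure of how often a TRA was read. Both TRA were also seen alone for 9 of the 112 TRB, 1 of them for 32 and neither for 71. A repeated TRA pair thus made its TRB a multi-TRA clone in 9 of 112 cases.

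Lower-grade contigs followed the joined clones. In 28 members of joined clones the partner TRA was present in a contig of the same cell that was not flagged as high-confidence, full-length and productive. In the 415 members of the 66 clones that were not joined this was so for 1 cell. The deposited clonotype numbers put all cells of 11 of the 12 joined clones in 1 clonotype, and those of 2 of the 66 others. These 2, NOD 1 clone 22 and NOD 2 clone 10, had TRA with identical CDR3 nucleotides. The clonotype numbers come with the same contigs that set the patterns, so they are a description and no separate measure.

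The large clones that were not joined had a different make-up. There were 16 clones with 10 or more members, of which 4 were joined and 12 were not. In 7 of these 12 the second TRA had 1 cell. Clone 1 of Tet2KO NOD 1 (TRBV3, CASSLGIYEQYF) had 32 cells with TRAV9-1 and 1 with TRAV6N-7, clone 2 of NOD 1 (TRBV3, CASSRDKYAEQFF) 27 with TRAV14-3 and 1 with TRAV7D-2, and clone 3 of NOD 1 (TRBV16, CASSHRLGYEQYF) 22 with TRAV5-4 and 1 with TRAV9N-4. No dual-TRA cell had these TRB, which allows a dual share of up to 9.09% in 33 cells, 10.7% in 28 and 13.0% in 23. The lone cells had 12, 11 and 8 TRA UMIs, above the median of 7, 7 and 9 of their clone's first TRA in the first 2 cases.

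Clone 2 of Tet2KO NOD 1 had many cells for each of its TRA. Its TRB was found with TRAV6D-6 and TRAJ12 in 19 cells and with TRAV6D-6 and TRAJ30 in 14 cells, and in 0 dual-TRA cells. A count of 0 in 33 cells allows a dual share of up to 9.09%, below the 71.1% to 89.5% of the large joined clones. Joined clones were selected by their dual cells, and their size here counts those cells, so the comparison is a description. The smaller joined clones ranged from 12.5% to 71.4%. Its TRA were read at a median of 3 and 2.5 UMIs. The first TRA matched the germline V and J over its whole CDR3, as printed above, and the second left 1 base unmatched. The TRAV6D-6 and TRAJ30 chain occurred in 2 libraries, the TRAV6D-6 and TRAJ12 chain in 1.

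Of the other large clones that were not joined, 1 had dual cells with 1 of its TRA. A lone cell with the second TRA was found in Tet2KO NOD 1 clone 3 and NOD 2 clones 1, 2 and 4. The last of these is a form of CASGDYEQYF and is described below. Clone 4 of NOD 1 (TRBV20, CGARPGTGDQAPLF) had 20 cells with TRAV2 (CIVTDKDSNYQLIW) and 3 with TRAV7D-3 (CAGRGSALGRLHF), and 2 dual cells. Both dual cells held the TRAV7D-3 chain with a TRAV2 chain whose CDR3, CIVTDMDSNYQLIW, differs from that of the 20 cells at 1 base. By the nucleotide identity used they did not count as joined. Whether the TRAV2 chains are the same rearrangement was not tested. In Tet2KO NOD 1 clone 3 (TRBV15, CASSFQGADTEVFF) the counts were 21 and 1, and in NOD 2 clone 2 (TRBV15, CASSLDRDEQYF) 16 and 1, with 0 dual cells in each. Clone 1 of NOD 2 (TRBV12-1, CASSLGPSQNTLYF) had 19 cells with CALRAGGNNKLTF and 1 with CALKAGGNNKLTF, both TRAV12-1 with TRAJ56, and 0 dual cells.

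**Figure D3:**
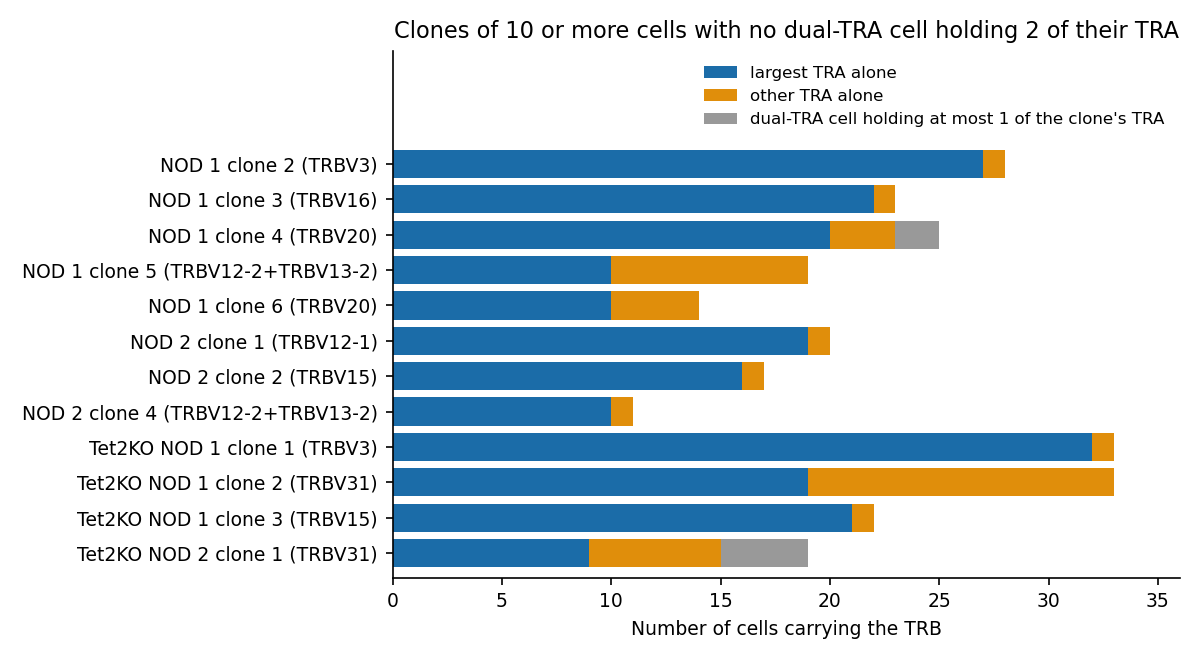
Cells carrying the TRB of the 12 clones of 10 or more members that were not joined: cells with the largest TRA, cells with another TRA, and dual-TRA cells that hold at most 1 of the clone's TRA. Tet2KO NOD 1 clone 2 has 19 and 14 cells for its TRA and 0 dual cells, while in 7 clones the second TRA has 1 cell.

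In the same-amino-acid clones the TRA differed at few bases of the CDR3. Over 20 pairs of TRA with the same amino acids, 3 had identical CDR3 nucleotides and differed in the V name alone (TRAV13-4-DV7 and TRAV13N-2, TRAV6D-7 and TRAV6N-7, TRAV12-3 and TRAV12D-3). Their V regions upstream of CDR3 differed at 0 bases in the contigs. The other 17 pairs held 23 differing bases in all. All 23 were the third base of a codon, and all lay in codons 3 to 6 of the CDR3.

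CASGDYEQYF was found in several such forms. With the TRAV6D-6/TRAJ45 chain it was found in 39, 12, 1 and 4 cells of the libraries under the joined TRBV name, in 3 TRB nucleotide forms, 3 TRA nucleotide forms and 6 combinations. In NOD 1 the gac form was found with codon CAA in 10 cells and with codon CAG in 9, the gat form with CAG in 7, and the form with unmatched bases with CAG in 13. In NOD 2 the gat form was found with CAG in 10 cells and with CAA in 1. The form with unmatched bases was found there with the CAA and ACG form in 1 cell. That TRA form is as long as the CAA form and differs from it at 1 base. In Tet2KO NOD 2 the gac form had 1 cell with each codon, and the gat form had 2 cells with CAG and 3 with another TRA, TRAV4-2 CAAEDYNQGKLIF. The CAA and CAG forms differ by A18G, counted from 1 at the 5′ end of the CDR3. The median TRA UMIs in NOD 1 were 7 for the CAA form and 5 for the CAG form of the gac clone.

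This CDR3α was not found with any other CDR3β. All single-pair cells with the TRAV6D-6/TRAJ45 chain carried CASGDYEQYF, 56 of them under the name TRBV12-2+TRBV13-2 and 4 under TRBV13-2. Since the name is part of the rule, the 4 cells were counted as other TRB. Codon CAA was read in 4 libraries and codon CAG in 3, each of the 3 TRB forms was read in more than 1 library, and 0 dual-TRA cells were read for any of the multi-TRA clones of this CDR3β.

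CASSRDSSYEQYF (TRBV15 with TRBJ2-7) was the other CDR3β with multi-TRA clones in several libraries. With TRAV16N, TRAJ23 and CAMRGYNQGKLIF it was found in 3, 6, 0 and 8 cells of the 4 libraries, in 3 TRB forms, 4 TRA forms and 7 combinations. Its NOD 1 clone had 2 cells with 1 TRA form and 1 with another. The NOD 2 clone had 3, 1 and 1 cells per form, the Tet2KO NOD 2 clone had 7 and 1, and none of the 3 clones had a dual cell. This CDR3α was also read with 2 other CDR3β of the same TRBV15, in 4 cells with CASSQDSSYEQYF and 1 cell with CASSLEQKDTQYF.

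Clone 1 of Tet2KO NOD 2 combined synonymous TRA with dual cells. Its TRAV7-4 with TRAJ40 chain, with a single amino acid CDR3α, was written in 3 forms, of 9, 4 and 1 cells, and 1 cell had TRAV7-1 with TRAJ40. A further 4 dual-TRA cells had this TRB, and none of them carried a TRA of the single-pair cells by nucleotides. In 3 of them 1 TRA was the same TRAV7-4 amino acid chain in another nucleotide form with TRAV8D-2 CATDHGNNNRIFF, and in the fourth it was again another form with TRAV5-4 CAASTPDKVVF. The clone therefore held 5 nucleotide forms of this CDR3α over 18 cells. Clone 6 of NOD 1 (TRBV20, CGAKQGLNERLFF) had 2 forms of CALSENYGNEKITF, of 10 and 4 cells, that differ by A15G, and 0 dual cells.

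Pairs of TRA within a clone were alike more often in clones that were not joined. Of 92 such pairs 22 shared V and J (23.9%) and 20 shared the CDR3α amino acids (21.7%). Among the 17 pairs of joined clones 0 shared V and J, which allows up to 17.6%. The 2 TRA of a dual-TRA cell shared V and J in 8 of 846 distinct pairs (0.946%) and amino acids in 1. TRA of different TRB in the same library shared V and J in 0.114% of pairs and amino acids in 0.0131%. By library the share of pairs with the same V and J in clones that were not joined was 18.2%, 40%, 10% and 41.7%, against 0.98%, 0.922%, 1.87% and 0% within dual cells. Tet2KO NOD 1 was lowest, with 1 of 10 pairs. These shares are descriptions, since several pairs come from 1 clone and the same-amino-acid pattern was named from them.

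**Figure D4:**
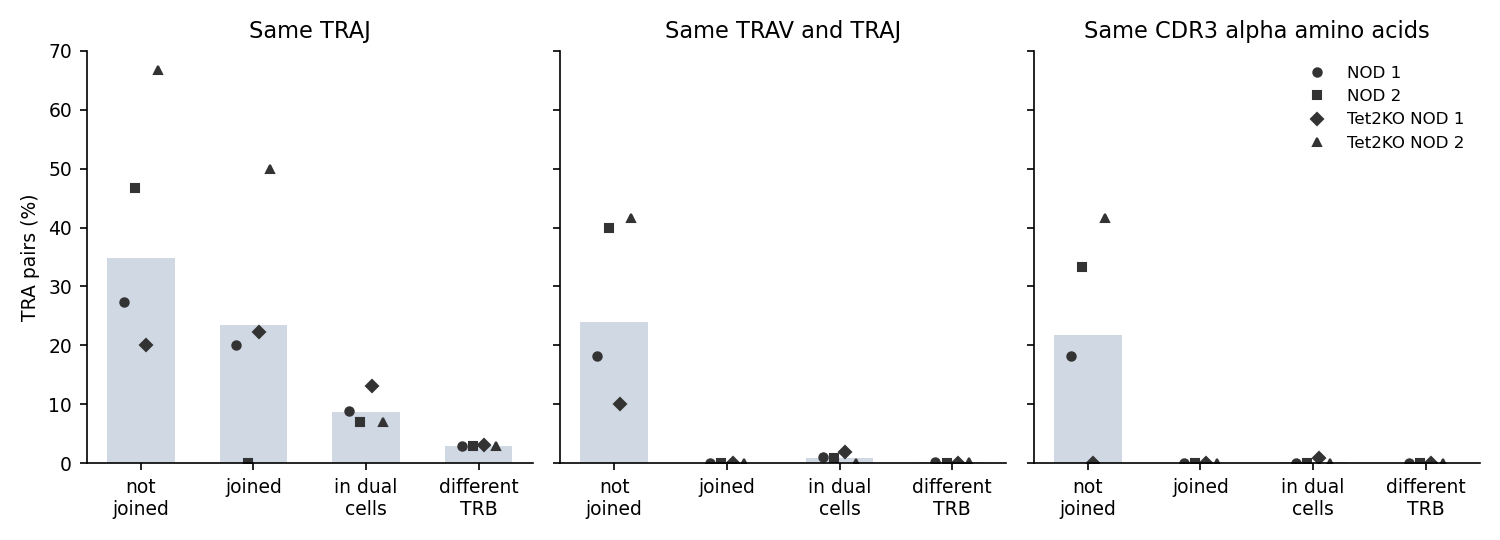
Share of TRA pairs with the same TRAJ, the same TRAV and TRAJ, and the same CDR3α amino acids, for pairs within clones that were not joined, within joined clones, within dual-TRA cells and between different TRB clones. Bars pool the 4 libraries and points are libraries; the same V and J make up 23.9% of pairs in clones that were not joined and 0.946% within dual-TRA cells.

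The remaining 46 clones, with another V or J, held 98 TRA, of which 77 had 1 cell. In 29 of these clones each TRA had 1 cell. A dual-TRA cell had the TRB of 4 of them, with 5 cells in all and 0 that joined TRA of the clone. None of their 286 members had the partner TRA in a lower-grade contig, which allows up to 1.05%. Clone 12 of NOD 1 (TRBV5) had the most TRA of these, 4 TRA of 1 cell each, with TRAV14N-1, TRAV4N-4 with 2 different TRAJ, and TRAV6D-6. Its TRB left 17 bases of the CDR3 unmatched to germline V or J. Clone 8 of NOD 1 (TRBV31) had 3 TRA of 4, 2 and 1 cells, and clone 10 of NOD 1 (TRBV2, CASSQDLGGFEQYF) 3 TRA of 4, 1 and 1 cells, with 0 dual cells in each.

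Nonproductive TRA contigs gave no link between the TRA of a clone. A failed rearrangement of the second TRA chromosome is inherited by daughter cells and can be read as a nonproductive contig. In 0 of 78 clones was a nonproductive TRA shared by cells with different productive TRA. The count was 0 in the 12 joined clones as well, so it does not tell the patterns apart. How often cells with the same TRA shared a nonproductive TRA is not given here. A nonproductive TRA contig was read in 36.4%, 38.4%, 42.2% and 22.2% of members and in 36%, 38%, 34.1% and 33.3% of cells of single-TRA clones. The mean difference was -0.56 points (SD 7.92, n = 4 libraries, two-sided exact sign-flip permutation p = 1).

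The multi-TRA clones more often had a dual-TRA cell with their TRB than the single-TRA clones. The shares were 17.1% against 3.47% in NOD 1, 14.3% against 0.53% in NOD 2, 35.7% against 4.35% in Tet2KO NOD 1 and 33.3% against 0.826% in Tet2KO NOD 2. The mean difference was 22.8 points (SD 10.6, n = 4 libraries), with the multi-TRA clones higher in 4 of 4. The two-sided exact sign-flip permutation test gave p = 0.125, the smallest that 4 libraries allow, and 0.375 after Benjamini-Hochberg adjustment over 9 comparisons of clone classes. None of the 9 could therefore pass 0.05. Among clones of 2 to 4 cells, where the classes are closer in size, the difference was 19.0 points. A clone whose cells carry 2 TRA meets the rule when either goes unread, so the rule itself can favour TRB with dual cells. Of the 17 multi-TRA clones with a dual cell, 12 were the joined ones.

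Over the 4 libraries together the share of multi-TRA clones was 8.14% of the 442 clones with 2 single-pair cells, 6.69% of the 254 with 3 or 4, 6.34% of the 142 with 5 to 9, and 17.4% of the 92 with 10 or more. By library the last value was 14.9%, 23.5%, 20% and 12.5%. It was the highest of the 4 size ranges in each library except Tet2KO NOD 2, where the range of 5 to 9 cells had 13.6%. A clone with more cells has more chances to show a second TRA, so the rule itself depends on size.

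The UMIs of the main TRA of a clone and of its other TRA differed by less than the spread between libraries. Among the 37 clones with a single largest TRA, the minor TRA had a median of 6, 9, 4 and 8 UMIs per cell and the major TRA 6, 7, 5 and 6. The mean difference was 0.75 UMIs (SD 1.5, n = 4, exact sign-flip permutation p = 0.5, adjusted 0.643). Cells with 1 TRA UMI made up 5.88%, 0%, 17.4% and 0% of minor and 4.94%, 3.17%, 4.49% and 4.76% of major TRA cells (mean difference 1.48 points, exact permutation p = 0.875). That difference rests on Tet2KO NOD 1, without which it was -2.33 points.

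Minor TRA were found with another TRB of the same library more often than major TRA. The shares were 16.7% against 10.5%, 25.0% against 14.3%, 28.6% against 14.3% and 16.7% against 0%, a mean difference of 12.0 points (SD 4.58, higher in 4 of 4 libraries). The exact sign-flip permutation p was 0.125, the smallest possible, and 0.375 after adjustment. These shares rest on 6 to 24 minor and 4 to 19 major TRA per library. Another TRB can here be another nucleotide form of the same CDR3β. In Tet2KO NOD 2 the only minor TRA counted was the CAG form of clone 4, found with another form of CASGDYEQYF. The CAG form of NOD 1 clone 5 was counted in the same way. In NOD 2 the major TRA counted was the CAG form of clone 4. Other counted TRA belonged to other CDR3β. The 1-cell minor TRA of NOD 1 clone 16 (TRAV16N) was in 58 cells with another TRB. That of Tet2KO NOD 1 clone 8 (TRAV7D-2) was in 28. Of major TRA, that of NOD 1 clone 11 (TRAV6D-6) was in 18 such cells and that of clone 16 (TRAV5-4) in 17. The rest outside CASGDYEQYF were in 1 or 2 such cells. No TRA of a joined clone was found with another TRB, against 11 of the 98 TRA with another V or J and 5 of the 34 in same-amino-acid clones. Free RNA and doublets as a source of shared TRA were not tested.

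The joints of multi-TRA TRB were 0 to 1 base shorter at the median than those of single-TRA TRB. The part of the CDR3β matched to neither V nor J had a median of 9, 9, 9.5 and 9 bases in multi-TRA and 10, 10, 10 and 9 in single-TRA clones. The mean difference was -0.62 bases (SD 0.479, n = 4, exact sign-flip permutation p = 0.25, adjusted 0.45), and it was 0 among clones of 2 to 4 cells. The direction turned with TRA within 2 edits merged (0.50 bases) and with TRA of 2 or more cells only (1.38 bases). The whole CDR3β had a median of 39, 42, 39 and 42 nucleotides against 42 in each library (mean difference -1.5, p = 0.5 by the same exact permutation test). A joint with no unmatched base was found in 1 of 41, 1 of 13, 0 of 14 and 2 of 9 multi-TRA TRB measured, each a form of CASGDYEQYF. Among single-TRA clones such joints made up 0.767%, 0%, 2.26% and 0%.

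**Figure D5:**
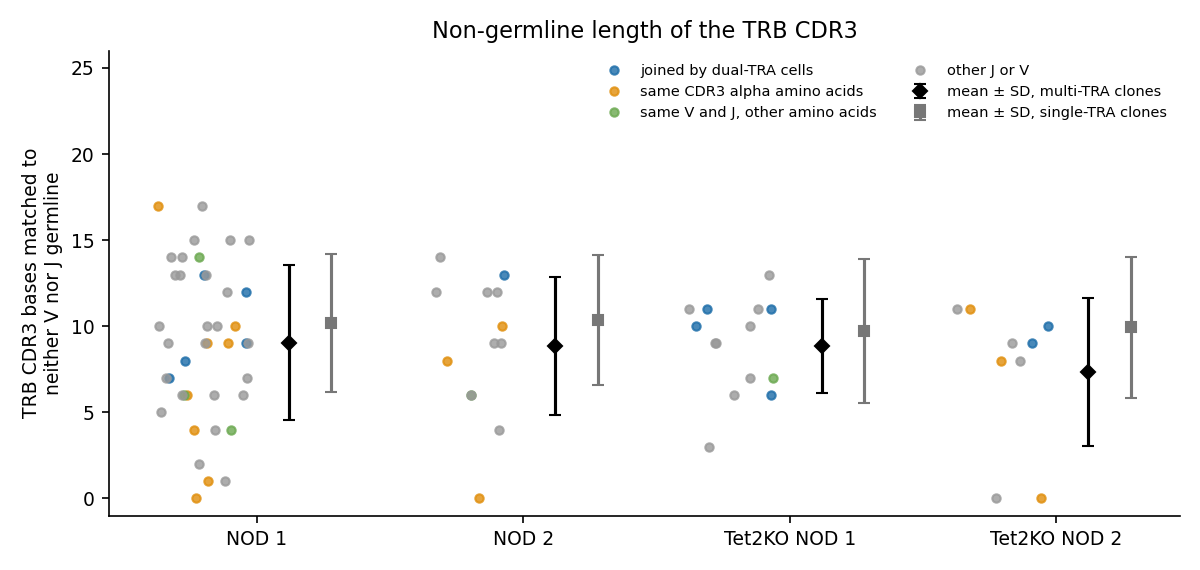
Number of CDR3 bases of each multi-TRA TRB that match neither V nor J germline, by library, with colours for the 4 patterns. Diamonds and squares give mean ± SD over multi-TRA and single-TRA clones; the groups overlap in each library, and the TRB at 0 bases are the gac and gat forms of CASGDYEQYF.

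The TRB of multi-TRA clones recurred across libraries, unevenly. The TRB of multi-TRA clones in NOD 1, NOD 2 and Tet2KO NOD 2 was also read in another library for 9.76%, 28.6% and 55.6% of clones, against 3.23%, 4.74% and 5.79% of single-TRA clones. In Tet2KO NOD 1 the order was turned, 0% against 4.35%. The mean difference was 18.9 points (SD 23.6, n = 4, exact sign-flip permutation p = 0.25, adjusted 0.45). It was 7.15 points without NOD 2 and 7.52 points without Tet2KO NOD 2, and 11 points among clones of 2 to 4 cells. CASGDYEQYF and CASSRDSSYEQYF account for the TRB that were multi-TRA in more than 1 library. Libraries of the same set number had 19 TRB (set 1) and 15 TRB (set 2) in common, against 2 to 10 for the other pairs of libraries. The part of the set in this result was not tested.

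Segment use did not separate the classes by test. The number of TRB clones or TRB-TRA pairs with each V and J segment was compared between multi-TRA and single-TRA clones, with the library as a block. By edgeR's quasi-likelihood test 0 of 63 segments were called in either direction (0% of those tested) at an adjusted p under 0.05. An unadjusted p under 0.05 was reached by 6 segments, and DESeq2 also called 0. The lowest adjusted p was 0.259. In simulated counts of this size the test found 11% of segments changed 2-fold and 87.3% of those changed 4-fold, so moderate differences were not detectable at this depth.

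The segments most used by multi-TRA clones are given with their values. TRAV6D-6, the V segment of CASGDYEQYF receptors and of Tet2KO NOD 1 clone 2, made up 8.82% of the TRA of multi-TRA clones and 2.93% of those of single-TRA clones (log2 fold change 1.54, SE 0.567, adjusted p = 0.259 by edgeR). It was counted in 7, 2, 3 and 3 pairs. TRAJ45 made up 10.0% against 4.34% (log2 fold change 1.20) and TRAJ23 8.82% against 3.87% (1.21). A clone with several TRA of the same V and J enters these counts once per TRA, which raises the segments of the same-amino-acid clones. Of the TRB segments, TRBV13-1 made up 14.1% against 7.63%, TRBV12-2+TRBV13-2 12.8% against 9.27%, TRBV16 10.3% against 7.86%, and TRBJ2-7 28.2% against 21.6%, TRBJ1-1 15.4% against 8.45%, TRBJ1-2 10.3% against 6.81%. The values were 8.24% against 9.04% for TRAV5-4, 6.47% against 8.33% for TRAV16N and 5.88% against 5.05% for TRAJ49. TRBV3 (10.3% against 5.52%) and TRBV19 (10.3% against 8.80%) were tied with TRBV16 in multi-TRA clones, and TRAJ56 (5.88% against 2.70%) with TRAJ49. With 1 TMM factor per chain, which moved the median log2 fold change over all segments from -0.11 to -0.71, TRBV16, TRBJ2-7 and TRAJ49 were lower in multi-TRA clones and 0 segments were called. The TMM alternative was first run with 1 factor over both chains, which called 12 segments, and the form per chain was chosen after those calls were seen.

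For the share of members and the share and number of multi-TRA clones, each library was thinned to 1241 single-pair cells, the number in the smallest. The NOD libraries then had 2.96% and 2.61% of their cells as members, and the Tet2KO NOD libraries 8.21% and 3.63%. The mean was 2.78% ± 0.246 (SD, n = 2) for NOD against 5.92% ± 3.24 for Tet2KO NOD, which is 3.14 points higher. The exact two-sided permutation p was 0.333, the smallest that 2 against 2 libraries allow, so no genotype test could pass 0.05. The groups did not overlap, but Tet2KO NOD 1 decided the size, since without it the difference was 0.845 points. Without thinning the groups overlapped and the difference was 1.60 points.

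The clones themselves were less apart than their cells. Of clones with at least 2 cells, the multi-TRA share after thinning was 7.14% and 5.77% for NOD against 8.83% and 6.92% for Tet2KO NOD (difference 1.42 points, exact permutation p = 0.667), and the ranges overlapped. Their thinned number was 8.33 and 6.58 against 11.8 and 9 (difference 2.94, exact permutation p = 0.333), while without thinning the order was turned, 41 and 14 against 14 and 9. The shares of joined clones and of clones with 3 or more TRA were taken from the full libraries, without thinning, so they can depend on depth. Of the multi-TRA clones 12.2% and 7.14% were joined in NOD, against 28.6% and 22.2% for Tet2KO NOD. These values did not overlap and lay 15.7 points apart on average (n = 2, exact permutation p = 0.333, the smallest possible). That value rests on 5 of 41, 1 of 14, 4 of 14 and 2 of 9 clones. It was 9.32 points with chains identified by amino acids, and -25 points with TRA of 2 or more cells only, which left 12 clones. Clones with 3 or more TRA made up 19.5% and 7.14% against 7.14% and 11.1% (difference -4.20 points, exact permutation p = 1), and the difference turned to 1.98 points without NOD 1.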

How the data were processed

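The submitters' processing notes name Cell Ranger 7.0.1 and GRCm38 (mm10). Which V(D)J segment set was used is not given in the sources. For each contig the deposited tables hold counts of UMIs and of reads, beside segments, CDR3, flags and clonotype, per the file headers. UMIs were used and reads gave depth.

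The members, lists and comparisons were chosen with earlier results of these data known. Named clones were the 4 with most members per library, the 5 with most TRA (8 clones tied at 3 TRA, of which the 2 with most members were taken), those multi-TRA in over 1 library, the 5 with most joining dual cells, and others chosen after their values were seen. Named segments were the 3 most used of each kind, by order of name where tied; tied segments are given beside them. Germline ends came from GENCODE M21, with 1 mismatch allowed if 4 matching bases followed. TRBV10 and TRAV9-2 were left out of joint length because under 6 bases of their CDR3 matched the annotation at the median.

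Thinning used exact hypergeometric expectations. Genotypes were compared by exact permutation over the 6 assignments of 4 libraries, and classes by exact sign flips of the 4 within-library differences. Replicates are pools of mice, and p-values measure only the spread between these pools. Segments counted 5 or more times in 2 or more columns (a class in a library) were tested with edgeR 4.0.16 (R 4.3.3), sized by TRB clones or TRB-TRA pairs, with DESeq2 1.42.0 as an alternative. The thinning and the segment test were tested on simulated data. No doublet caller was run; cells with over 1 TRB were left out. For a count of 0 the upper limit was 3 counts of the total.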

Additional observations from a re-analysis of the deposited data

How the results depend on the processing

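Taking set numbers as replicate block, the genotype differences keep their size by construction, 3.14 points, 1.42 points, 2.94 clones, 15.7 points and -4.20 points, with exact permutation p = 0.5 to 1. The labels do not say that a set was shared. Deviations of segment use correlated at 0.21 between same-numbered libraries, from 146 segments and 2 pairs. On these 2 grounds the numbers were not taken to pair samples. Same-numbered libraries did have more TRB in common, 19 and 15 against 2 to 10 for other pairs. Among values that answer a comparison, 166 kept their direction or, for called segments, their number under the alternatives. A difference of 0 was counted as kept. Of the others 15 reversed and 1 rose from 0 to 12 called segments. Crossings of 0.05 by a p-value were not counted. With the library block left out, exact permutation gave an unadjusted p = 0.0286, against 0.125 with it, for the share of clones with a dual-TRA cell. The shares of clones in 1 deposited clonotype and of TRA found with another TRB had the same p-values. The reversed values follow. Without thinning the number of clones differed by -16. The share of clones with 3 or more TRA differed by 0.355 points with identity by amino acids and 0.340 without shared barcodes, and by -10.4 to 1.98 when each library was left out. The share of cells with 1 TRA UMI was -7.78 points among clones of 2 to 4 cells, and -2.33 to 3.56 when each library was left out. The nonproductive share differed by 5.47 points by amino acids and 3.02 with TRA of 2 or more cells only, and by -3.44 to 2.96 when each library was left out. The TRA UMIs differed by -0.38 by amino acids. With TRA of 2 or more cells only, which left 12 clones, they differed by -1.75, joint length by 1.38 bases, the share of multi-TRA clones by -0.0794 points and that of joined clones by -25 points. Joint length differed by 0.50 bases with TRA within 2 edits merged. The causes were not tested. The count of clones was 69 with at least 2 UMIs per chain, 99 by amino acids, 77 by CDR3 nucleotides alone and 63 with TRA within 2 edits merged. TMM factors per chain moved the median log2 fold change over all segments from -0.11 to -0.71 and called 0 segments, with TRBV16 at -0.10, TRBJ2-7 at -0.062 and TRAJ49 at -0.27. The TMM alternative was first run with 1 factor over both chains, which called 12 segments, and the form per chain was chosen after those calls were seen. The first form sizes TRA by TRB although multi-TRA clones hold more TRA per TRB, and its median log2 fold change was -1.11. When each library was left out, TRBV16 ranged from -0.21 (without NOD 1) to 0.67 and TRAV5-4 from -0.44 to 0.039 (without Tet2KO NOD 2). Of alternatives added after seeing the data, no germline mismatch and merged D and N copies of TRAV changed no call. Clones of 1 cell per TRA limit each value here.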
